A study of Mus musculus with 4 samples.

Results

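The genes described here encode 9 subunits or enzymes of the mitochondrial tricarboxylic acid (TCA) cycle: Cs, Idh3a, Idh3b, Idh3g, Ogdh, Suclg1, Sucla2, Fh1 and Mdh2. They were found on the arrays by the RefSeq accession of their probes, which gave 12 probes for 9 of the 22899 genes with a named probe. All 9 were well above background on all 4 arrays. The arrays came from mouse bone marrow cultures, with 1 array in each of 4 groups. Wild-type macrophages and LysM-St18flox macrophages were marrow cells grown for 4 days with M-CSF (25 ng/ml), which keeps this lineage alive and dividing. Wild-type osteoclasts and LysM-St18flox osteoclasts were such macrophages after 3 more days with RANKL (50 ng/ml), the cytokine needed to form osteoclasts, beside M-CSF (25 ng/ml), so RANKL and time in culture changed together. By the usual meaning of its name, the LysM-St18flox genotype joins a loxP-flanked St18 gene, which encodes a zinc finger transcription factor, with Cre recombinase made from the lysozyme M locus of myeloid cells. The sources used here do not state the sex, age or number of the mice, whether cultures shared a mouse, or whether the wild-type mice carried Cre.

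The TCA cycle joins acetyl-CoA to oxaloacetate and oxidises the product step by step in the mitochondrial matrix, passing electrons to the respiratory chain and supplying carbon skeletons for synthesis. In macrophages the cycle can be interrupted after inflammatory activation, when citrate and succinate accumulate and aconitate is diverted to itaconate. Osteoclasts are rich in mitochondria, and the coactivator PGC-1beta, encoded by Ppargc1b, is known to drive the formation of mitochondria in them.

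Levels are given as log2 of the processed signal minus the 75th percentile of the array, here called the normalised log2 signal, so that 0 is the 75th percentile of an array. The share of spots well above background ran from 59.0% to 63.2%, and no spot was saturated. With 1 array per group no difference has a replicate check and no test was made. The scanner software gave an error of 10% of the signal for every probe of the 9 genes on every array, which by calculation makes 0.20 on the log2 scale for 2 arrays compared. Spots of the same probe repeated on an array gave a smaller calculated error, 0.045 to 0.056. Neither covers the spread between cultures or mice. A difference of at least 2-fold was counted as changed, which is a criterion of size. In such cultures a smaller share of cells of a type and less RNA per cell cannot be told apart.

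The 9 osteoclast markers were all at least 2-fold higher in osteoclasts of both genotypes, with medians of 5.82 and 7.51 (Mmp9 in wild-type macrophages and Calcr in macrophages of both genotypes were not well above background, so these differences are bounds). All 7 macrophage markers were well above background on every array. Of these, 2 (wild type) and 4 (LysM-St18flox) were at least 2-fold lower in osteoclasts, led by the Fc receptor gene Fcgr1 (-4.30 and -4.39) and the phagocytic receptor gene Mertk (-2.30 and -4.22). The responses of Mertk differed by -1.92. The log2 of the summed signal of these 7 markers, which the brightest probes carry, was 9.60 and 8.89 in the wild type, macrophages first. It was 9.49 and 9.02 in LysM-St18flox. Markers of other marrow cells were in part detected. Well above background on all 4 arrays were 3 of 5 B cell genes, 4 of 6 T and NK cell genes, 1 of 5 erythroid genes, 1 of 8 stromal genes and 2 of 5 dendritic cell genes. Not so on any array were 1 (Cd79a), 2 (Cd8a and Ncr1), 3 (among them Klf1 and Alas2), 5 (among them Pdgfra and Cxcl12) and 0 of them. For B cell genes the log2 of the summed signal ran from -1.78 to 0.76 over the 4 arrays. It ran from 1.26 to 1.89 for T and NK cell genes and from -2.55 to -0.77 for erythroid genes. It ran from -2.45 to -2.01 for stromal genes and from 6.66 to 7.36 for dendritic cell genes. The last is the level of Siglech alone. Such sums of different probes are to be compared between arrays, not between lists. The B cell gene Cd79b fell in both genotypes (-2.23 and -3.29). The part of these markers in the differences of the 9 genes was not tested. St18 signal was below wild type in LysM-St18flox by the brighter of its 2 probes, 3.52-fold in macrophages and 1.35-fold in osteoclasts. No value is given for the other probe. The sources used here do not place the St18 probes relative to the floxed exons, so these values do not check the deletion.

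Transcripts of the cycle were higher in osteoclasts than in macrophages, by a modest amount in the wild type and by more on the LysM-St18flox arrays. In the wild type 8 of the 9 genes were higher in osteoclasts, where 50.2% of all measured genes were, and Sucla2 was lower. Only Idh3a reached 2-fold, and the median difference was 0.56. In LysM-St18flox all 9 were higher, against 48.9% of all genes, 7 of them by at least 2-fold, with a median of 1.23. Of all measured genes, 5.7% (wild type) and 11% (LysM-St18flox) were at least 2-fold higher in osteoclasts, and the median of all genes was 0.00 and -0.02. None of the 9 genes was at least 2-fold lower in either genotype, against 7.32% and 12.2% of all genes. Median scaling of the arrays moved the split of all changed genes in LysM-St18flox from 1712 higher and 1897 lower to 2206 higher and 1522 lower, and shifted the median of all genes by 0.17.

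**Figure D1:**
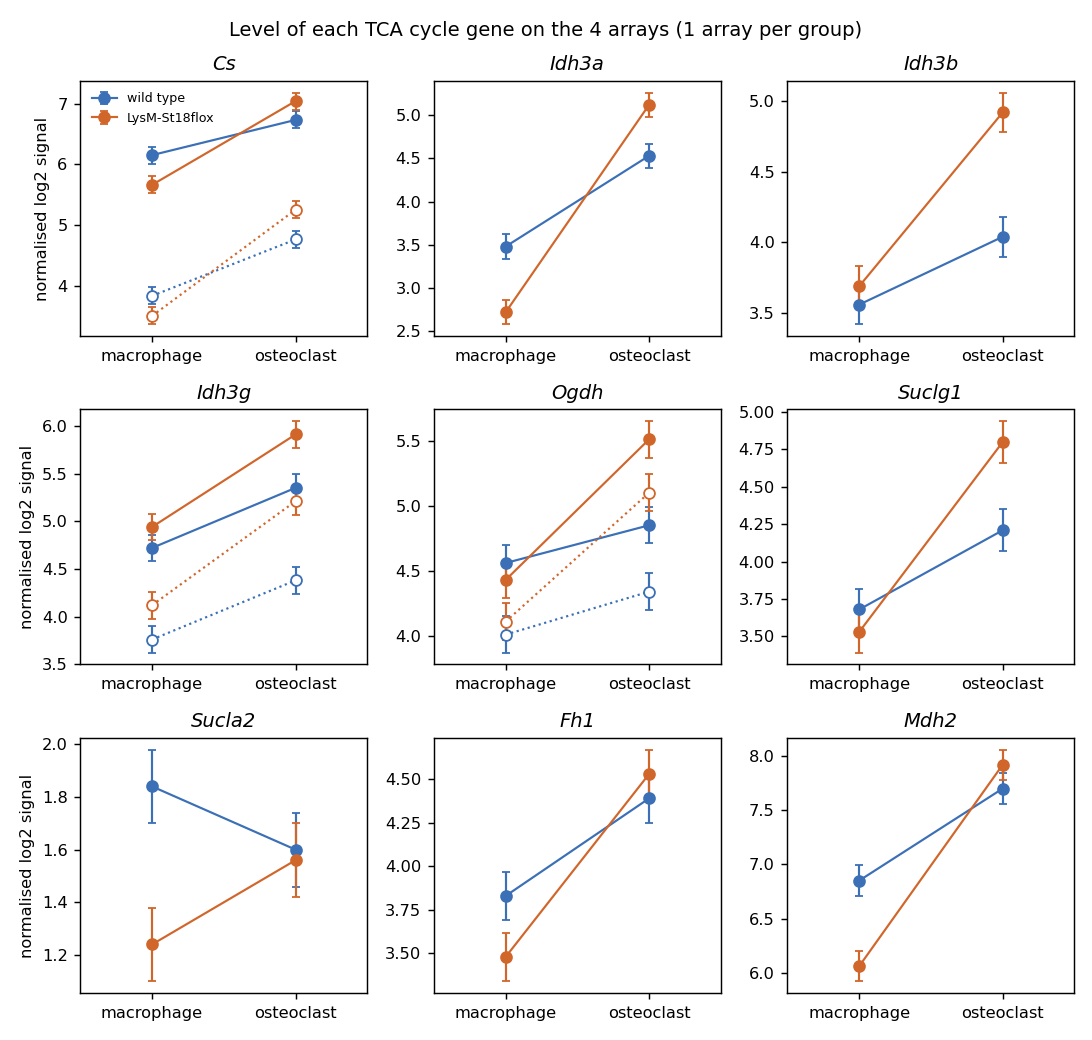
Normalised log2 signal (vertical axis) of each gene in macrophages and osteoclasts, wild type in blue and LysM-St18flox in orange. Filled points are the brightest probe, open points the other probe of Cs, Idh3g and Ogdh, and bars the software's error of 0.14 for a level; the LysM-St18flox osteoclast array is the highest for 8 of the 9 genes.

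Citrate synthase, encoded by Cs, condenses acetyl-CoA with oxaloacetate and opens the cycle. The normalised log2 signal of Cs was 6.15 (macrophages) and 6.73 (osteoclasts) in wild-type cultures and 5.66 (macrophages) and 7.04 (osteoclasts) in LysM-St18flox cultures. Both osteoclast arrays lay above both macrophage arrays, and the genotypes stood in opposite order in the cell types. The osteoclast excess was 1.49-fold (wild type) and 2.62-fold (LysM-St18flox). A dimmer Cs probe gave larger differences between the cell types, 0.93 and 1.74 against 0.58 and 1.39, and the same difference between the responses, 0.81.

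NAD-dependent isocitrate dehydrogenase converts isocitrate to alpha-ketoglutarate and is built from a catalytic alpha subunit (Idh3a) with a beta (Idh3b) and a gamma subunit (Idh3g). Idh3a had levels of 3.48 (macrophages) and 4.53 (osteoclasts) in wild-type cultures and 2.72 (macrophages) and 5.12 (osteoclasts) in LysM-St18flox cultures. These levels span 2.41, the widest range among the 9 genes. Of the 9 only Idh3a rose by at least 2-fold in both genotypes, 2.06-fold (wild type) and 5.3-fold (LysM-St18flox). The wild-type value, 1.045, lay just inside the 2-fold criterion (a log2 difference of 1) and was 0.92 to 0.98, outside it, with 4 of 6 other settings. For Idh3b the levels were 3.56, 4.04, 3.69 and 4.92 in the same order of arrays. Its LysM-St18flox osteoclast array stood apart from the other 3, which lay within 0.48 of each other. Idh3g stood at 4.72, 5.35, 4.94 and 5.91. By the brightest probes both Idh3b and Idh3g were lowest in wild-type macrophages, whereas the other 7 genes were lowest in LysM-St18flox macrophages. The dimmer Ogdh probe was also lowest in wild-type macrophages, at 4.01 against 4.11 in LysM-St18flox macrophages. The Idh3g response in LysM-St18flox, 0.963, lay just outside 2-fold, and its other probe gave 1.09.

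The subunits of this enzyme differed unequally. Between the genotypes Idh3a differed in macrophages by -0.77, while Idh3b differed by 0.13 and Idh3g by 0.22. The genotype difference of Idh3a minus that of Idh3b was -0.90 in macrophages and -0.28 in osteoclasts, and minus that of Idh3g it was -0.99 and 0.04. The scaling of an array cancels in these values. The response of Idh3a exceeded that of Idh3b by 0.56 (wild type) and 1.18 (LysM-St18flox), and that of Idh3g by 0.42 and 1.44. The calculated error of such a difference between differences is 0.29.

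The alpha-ketoglutarate dehydrogenase complex yields succinyl-CoA, and Ogdh encodes its first, decarboxylating component. Ogdh had levels of 4.56 (macrophages) and 4.85 (osteoclasts) in wild-type cultures and 4.43 (macrophages) and 5.51 (osteoclasts) in LysM-St18flox cultures. The macrophage arrays were close together and the LysM-St18flox osteoclast array was well above the rest. RANKL cultures exceeded macrophages 1.22-fold (wild type) and 2.11-fold (LysM-St18flox). Its probes differed in sign between the genotypes in macrophages, at -0.13 for the brighter and 0.11 for the dimmer probe, both within the error. Dlst, the succinyl-transferring component of the complex, was 1.59-fold (wild type) and 2.4-fold (LysM-St18flox) higher in osteoclasts, and Dld, the component shared with pyruvate dehydrogenase, 1.64-fold and 2.84-fold.

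Succinyl-CoA synthetase makes nucleoside triphosphate from succinyl-CoA. Suclg1 encodes the alpha subunit common to both forms, Sucla2 the beta subunit of the ATP-forming enzyme and Suclg2 that of the GTP-forming enzyme. Suclg1 had levels of 3.68 (macrophages) and 4.21 (osteoclasts) in wild-type cultures and 3.53 (macrophages) and 4.80 (osteoclasts) in LysM-St18flox cultures. Osteoclasts were 1.45-fold and 2.42-fold higher. In the wild-type response Sucla2 went against the other genes. Its levels were 1.84, 1.60, 1.24 and 1.56 in the same order of arrays. Its highest value was in wild-type macrophages, and its osteoclast arrays differed from each other by 0.04. The response of Sucla2 was -0.24 (wild type) and 0.32 (LysM-St18flox), which left it below Suclg1 by 0.77 and 0.95. Suclg2 was at 0.51 and 0.80 with its brightest probe, and its 2 other probes also gave values above 0 in both genotypes, from 0.21 to 0.90.

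Succinate dehydrogenase, which is also complex II of the respiratory chain, has 4 subunits, none of them among the 9 genes. Their responses were 0.54 and 1.37 for Sdha, 0.51 and 1.21 for Sdhb, 0.26 and 1.03 for Sdhc and 0.58 and 1.19 for Sdhd, the wild type first.

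Fumarase, encoded by Fh1, hydrates fumarate to malate. Fh1 levels were 3.83 (macrophages) and 4.39 (osteoclasts) in wild-type cultures and 3.48 (macrophages) and 4.53 (osteoclasts) in LysM-St18flox cultures. The osteoclast arrays lay within 0.15 of each other, inside the calculated error, and the macrophage arrays differed by 0.35. The response was 0.56 (wild type) and 1.05 (LysM-St18flox). Malate dehydrogenase, encoded by Mdh2, regenerates oxaloacetate and closes the cycle. Mdh2 levels were 6.85, 7.70, 6.06 and 7.92 in the same order of arrays. Here too the genotypes lay closer in osteoclasts than in macrophages, at 0.21 against -0.79. For Fh1 that order depended on the scaling. Median scaling gave 0.40 in osteoclasts, and the macrophage value ranged from -0.36 to -0.31 over 6 settings. The Mdh2 response was 1.81-fold (wild type) and 3.61-fold (LysM-St18flox).

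**Figure D2:**
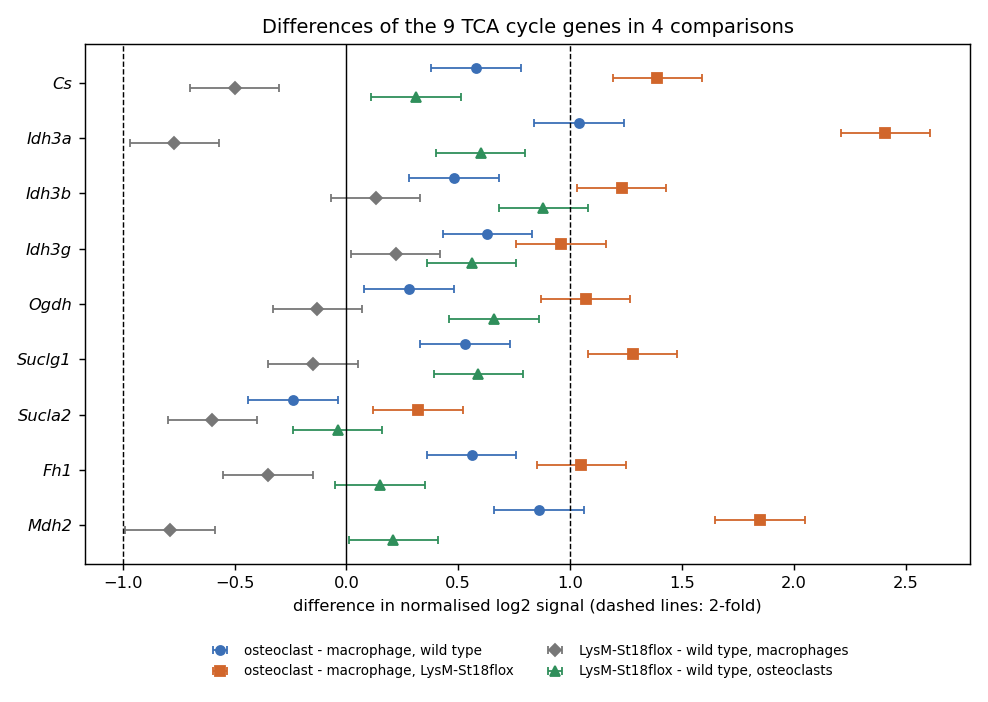
Differences in normalised log2 signal (horizontal axis) of the 9 genes in 4 comparisons, with the calculated error of 0.20 as bars and 2-fold as dashed lines. The orange squares, osteoclasts against macrophages in LysM-St18flox, lie to the right of the blue circles for every gene, and the grey diamonds, the genotype difference in macrophages, lie below 0 for 7 genes.

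Between the genotypes none of the 9 genes differed by 2-fold, in macrophages or in osteoclasts. Of all measured genes 3.3% were at least 2-fold higher and 3.01% lower in LysM-St18flox macrophages, and 3.82% higher and 3.94% lower in LysM-St18flox osteoclasts. In macrophages 2 of the 9 genes were higher in LysM-St18flox, against 48.1% of all genes, and 7 were lower, with a median of -0.35 against -0.02 for all genes. The lowest were Mdh2 at -0.79, Idh3a at -0.77, Sucla2 at -0.60 and Cs at -0.50. Beyond the calculated error 5 genes were lower and 1, Idh3g, was higher, while Idh3b, Ogdh and Suclg1 lay within it. With normexp Idh3g was within it (0.14) and Idh3b beyond it (0.46). Suclg1, at -0.15, turned to 0.03 with the normexp background correction. Other lists were also lower in LysM-St18flox macrophages, with 20 of 22 measured respiratory chain subunits (median -0.30) and 11 of 14 glycolytic enzymes (-0.31). Of 13 measured genes of pyruvate entry and its control, inhibitory kinases included, 4 were lower (median 0.03).

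In osteoclasts 8 of the 9 genes were higher in LysM-St18flox, against 49.6% of all genes, with a median of 0.56, and 7 of them by more than the calculated error. Idh3b was the highest at 0.88, followed by Ogdh at 0.66, Idh3a at 0.60 and Suclg1 at 0.59. Fh1 and Sucla2 were within the error, although Fh1 was beyond it with median scaling (0.40). Mdh2, at 0.21, was within it (0.15) when scaled on probes well above background. Sucla2, at -0.04, turned to 0.21 with median scaling and to 0.01 with normexp. The order of the genes therefore differed from that in macrophages, where Mdh2 and Idh3a led and Idh3b was near 0. Median scaling moved the median of all genes by 0.24 in this comparison, the median of the 9 genes to 0.81, and the split of all changed genes from 558 higher and 575 lower to 1000 higher and 314 lower. That split was 646 and 393 with quantile normalization and 432 and 263 with the deposited log2 values. Other lists were also higher in LysM-St18flox osteoclasts, with 20 of 22 measured respiratory chain subunits (median 0.35) and 10 of 14 glycolytic enzymes (0.23). Of 13 measured genes of pyruvate entry and its control, inhibitory kinases included, 12 were higher (median 0.54). Osteoclast markers differed between the same arrays. Of the 9 markers 7 were at least 2-fold higher in LysM-St18flox osteoclasts, with a median of 1.23 and a range from -0.29 to 2.31. The log2 of the summed signal of the 9 markers was 9.57 (wild type) and 9.93 (LysM-St18flox), against 3.53 and 3.27 in macrophages. The part of these markers in the differences of the 9 genes was not tested.

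The response to RANKL was larger in LysM-St18flox for all 9 genes. Of all 13668 genes well above background on all 4 arrays, which are the base here, 54.4% had the higher response there. Idh3a was the gene whose responses differed by at least 2-fold, at 1.36, against 3.22% of all genes with a higher and 4.7% with a lower response. Mdh2, at 0.998, lay just outside. The values of Cs, Ogdh, Idh3b and Suclg1 followed at 0.81, 0.79, 0.75 and 0.74, then Sucla2 at 0.56, Fh1 at 0.50 and Idh3g at 0.34. All exceeded the calculated error of 0.29 as given, but Idh3g was within it, at 0.21 to 0.27, with 3 of 6 other settings. The median was 0.75 against 0.04 for all genes. A larger response in LysM-St18flox was not particular to the 9 genes. All 8 further mitochondrial cycle enzymes (median 0.65), all 22 measured respiratory chain subunits (0.62) and all 14 glycolytic enzymes (0.47) had it. So did 11 of 13 measured genes of pyruvate entry and its control, inhibitory kinases included, and 3 of 5 cytosolic enzymes of cycle intermediates. The difference between the responses holds the same 4 arrays as the comparisons above and is no further evidence for them. Cs, Idh3a, Ogdh, Suclg1, Fh1 and Mdh2 were lower in LysM-St18flox macrophages and higher in LysM-St18flox osteoclasts, so both sides added to it, unlike Idh3b and Idh3g, which were higher in LysM-St18flox in both cell types. Under median scaling the median of all genes moved by 0.23, and the split of genes past 2-fold from 440 higher and 642 lower to 810 higher and 363 lower, with 372 and 328 under normexp. Of the neutrophil markers 3 of 7 measured were at least 2-fold lower in osteoclasts in LysM-St18flox and 0 of 6 in the wild type. The log2 of their summed signal in macrophages and osteoclasts was 3.91 and 2.91 in LysM-St18flox, against 3.69 and 3.23 in the wild type. Their part in the difference was not tested.

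**Figure D3:**
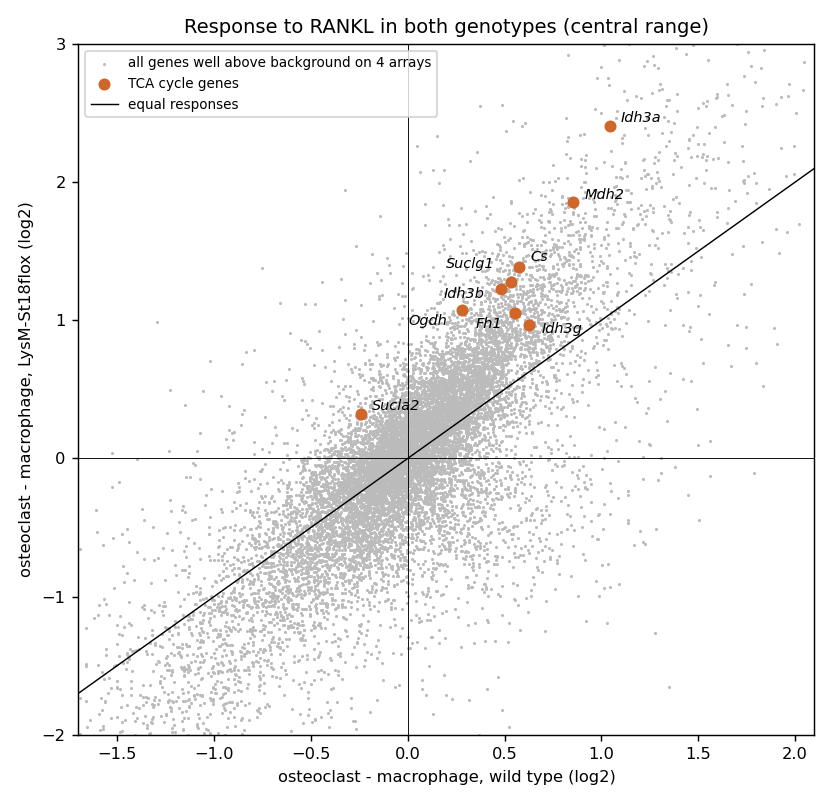
Osteoclast minus macrophage difference in wild type (horizontal axis) and LysM-St18flox (vertical axis), both in log2, for genes well above background on all 4 arrays in grey and the 9 TCA cycle genes in orange. All 9 lie above the line of equal responses, and 741 of 13668 genes lie outside the plotted range.

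A further 8 genes of mitochondrial cycle enzymes (Idh2, Dlst, Dld, Suclg2 and the subunits of succinate dehydrogenase) gave values close to these. All 8 were higher in osteoclasts in both genotypes. None reached 2-fold in the wild type, with a median of 0.53, and 6 did in LysM-St18flox, with a median of 1.2. Those that did not were Idh2, the NADP-dependent isocitrate dehydrogenase (0.89), and Suclg2 (0.80). Respiratory chain subunits had medians of 0.44 and 1.01, with 1 and 11 of 22 measured genes at least 2-fold higher, and the highest by the mean of both were Cyc1, which encodes cytochrome c1 (0.92 and 2.20), and Uqcrc2, a core subunit of complex III (1.01 and 1.60). Uqcrc2 was the 1 past 2-fold in the wild type. Glycolytic enzymes had medians of -0.12 and 0.37, with 0 and 1 of 14 at least 2-fold higher, the latter being Eno1 (1.16). Whether the TCA cycle genes differ from these lists beyond the spread between cultures was not tested.

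Genes of pyruvate entry into the cycle and its control were mixed. In the wild type none of 13 measured genes reached 2-fold (median 0.36), and in LysM-St18flox 7 rose and 1 fell (median 1.01). The highest were Pdhb and Dlat, subunits of the pyruvate dehydrogenase complex that makes acetyl-CoA, at 0.98 and 1.93 and at 0.83 and 1.82. Pdp1, the phosphatase that activates the complex, fell in LysM-St18flox at -1.53 and was at -0.84 in the wild type, and Pdp2, a related phosphatase, was at -0.53 and -0.17. The list also counts kinases that inactivate the complex. Of these Pdk1 (1.06) and Pdk3 (1.53) were among the 7 that rose. Between the genotypes 4 of the 13 were at least 2-fold higher in LysM-St18flox osteoclasts and 1 in macrophages. The 4 were Mpc2 (1.13), a mitochondrial pyruvate carrier gene, Dlat (1.01), Pdk2 (1.39) and Pdk3 (1.09). The 1 in macrophages was Pdk2 (1.04).

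Of 10 measured genes of glutamine, aspartate and itaconate metabolism, 1 rose and 1 fell in the wild type, and 2 rose and 1 fell in LysM-St18flox. Slc1a5, a glutamine transporter, rose 3.33-fold and 6.81-fold. Got1, the cytosolic aspartate aminotransferase, was at 0.42 and rose by 1.16 in LysM-St18flox. Acod1, which makes itaconate from aconitate, fell 5.36-fold and 4.63-fold, and Pck2, the mitochondrial phosphoenolpyruvate carboxykinase, was at -0.32 and -0.78.

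Among 5 measured mitochondrial carriers of cycle intermediates none reached 2-fold in the wild type and 1 did in LysM-St18flox. Slc25a13, an aspartate-glutamate carrier, was at 0.00 and 1.02, Slc25a11, the oxoglutarate carrier, at 0.32 and 0.53, Slc25a10, the dicarboxylate carrier, at -0.10 and 0.24, and Slc25a1, the citrate carrier, at -0.72 and -0.51. Among 8 genes of lipoylation and of the assembly of succinate dehydrogenase 0 and 2 reached 2-fold, Lipt1, a lipoyl transferase (0.53 and 1.71), and Sdhaf1, an assembly factor (0.48 and 1.29). Lipt2 (-0.13 and 0.38) and Sdhaf4 (-0.01 and 0.56) were lowest by the mean of both responses.

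Of the regulators of mitochondrial genes, 2 of 7 measured rose in the wild type and 4 of 8 in LysM-St18flox. Ppargc1b stood at -0.53 (macrophages) and 2.53 (osteoclasts) in wild-type cultures and -0.08 (macrophages) and 4.05 (osteoclasts) in LysM-St18flox cultures, and was 2.87-fold higher in LysM-St18flox than wild-type osteoclasts. It rose 8.32-fold and 17.5-fold, and its other probe gave 3.32 and 4.46. Esrra, a nuclear receptor that works with PGC-1 coactivators, was at 0.38 and 1.09, and Myc, a growth regulator, at 1.28 and 2.18. Nrf1 (-0.03 and 0.06) and Gabpa (0.18 and 0.28), which encode factors of nuclear genes for mitochondrial proteins, were lowest by the mean of both responses. Ppargc1a, the gene of PGC-1alpha, was well above background in LysM-St18flox macrophages alone, so its response there, -0.82, is a bound, and it has no value in the wild type.

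**Figure D4:**
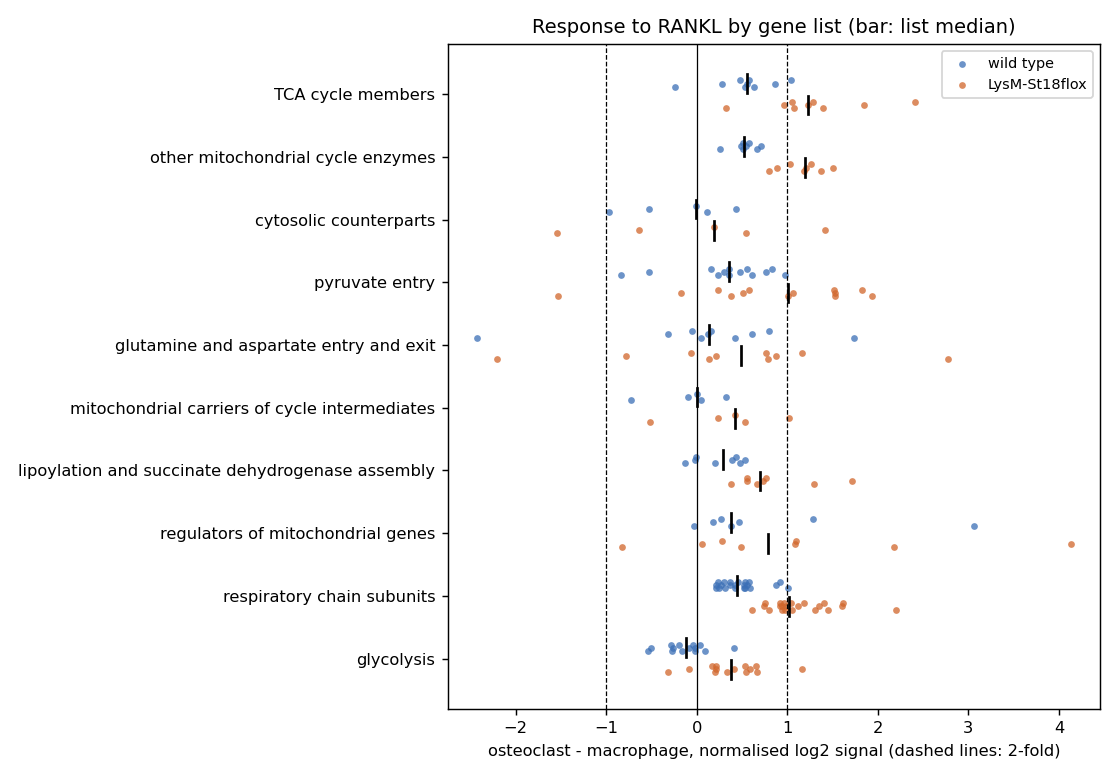
Osteoclast minus macrophage difference in normalised log2 signal (horizontal axis) for each measured gene of the lists, wild type in blue and LysM-St18flox in orange, with the list median as a bar and 2-fold as dashed lines. The medians of the 9 TCA cycle genes (0.56 and 1.23) and of the other cycle enzymes (0.53 and 1.2) lie close together, and those of glycolysis are -0.12 and 0.37.

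The pattern of the 9 genes over the 4 arrays was set against all other genes well above background on every array. Each gene was centred on its own mean, and the mean profile of the 9 genes was -0.29 (macrophages) and 0.23 (osteoclasts) in wild-type cultures and -0.61 (macrophages) and 0.67 (osteoclasts) in LysM-St18flox cultures. By Euclidean distance the closest of 13659 genes were Samm50 (0.013), Sclt1 (0.050), Acsf3 (0.055), Sdhb (0.061) and Sdha (0.061). Among the 9 genes themselves Suclg1 (0.164) and Cs (0.168) were closest to the mean profile, and Sucla2 (0.946) and Idh3a (0.886) farthest from it.

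Promoter sequences were taken from RefSeq (GRCm38.p6), as the 250 bases before each annotated start, and 8 of the 9 genes matched, with 13 windows. They are shown for Ogdh and Idh3g, each by a window that holds a match to a motif of factors of mitochondrial genes. Also shown are Mdh2, the matched gene with the largest response, and Sucla2, the gene that was not higher in wild-type osteoclasts. Motifs were searched on both strands and are in capitals.

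Ogdh (chr11:6292308-6292557, plus strand): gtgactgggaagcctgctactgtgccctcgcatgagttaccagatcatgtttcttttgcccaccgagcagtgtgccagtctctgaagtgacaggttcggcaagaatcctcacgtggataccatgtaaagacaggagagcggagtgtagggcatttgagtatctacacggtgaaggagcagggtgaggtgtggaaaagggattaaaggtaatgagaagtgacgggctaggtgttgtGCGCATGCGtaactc
Idh3g (chrX:73786898-73787147, minus strand): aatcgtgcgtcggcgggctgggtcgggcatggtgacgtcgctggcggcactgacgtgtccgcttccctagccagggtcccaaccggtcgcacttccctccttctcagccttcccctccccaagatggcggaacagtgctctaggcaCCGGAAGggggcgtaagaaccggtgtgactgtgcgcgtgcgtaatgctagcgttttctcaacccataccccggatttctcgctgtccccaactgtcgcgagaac
Mdh2 (chr5:135778399-135778648, plus strand): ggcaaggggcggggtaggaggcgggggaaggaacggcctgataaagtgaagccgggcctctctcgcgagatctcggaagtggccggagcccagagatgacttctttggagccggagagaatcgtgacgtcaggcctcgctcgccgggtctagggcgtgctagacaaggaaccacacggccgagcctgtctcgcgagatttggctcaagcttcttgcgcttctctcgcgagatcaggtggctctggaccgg
Sucla2 (chr14:73552536-73552785, plus strand): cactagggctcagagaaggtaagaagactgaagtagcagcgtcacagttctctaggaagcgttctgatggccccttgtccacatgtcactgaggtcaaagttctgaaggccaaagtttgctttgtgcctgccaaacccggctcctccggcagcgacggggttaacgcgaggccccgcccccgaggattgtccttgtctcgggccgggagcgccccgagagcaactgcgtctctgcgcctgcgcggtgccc

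The NRF1 site, GCGCATGCG, was found in 2 of the 13 windows and in 1.45% of all 32851 promoter windows. Both windows are of Ogdh and overlap, and they hold the same site, which was counted in each. The windows of the other Ogdh starts hold no NRF1 site. In the Ogdh window shown the site lies 7 to 15 bases before the start. The ETS site bound by GABP, CCGGAAG, was found in 1 of the 13, that of Idh3g, 98 to 104 bases before the start, and in 6.91% of all windows. The ERR site, AAGGTCA, was in none of the 13 and in 4.08% of all windows. No 2 matches overlapped within a window. A match is a description of the letters and not evidence of binding, and these windows cover only part of the regulatory sequence of a gene.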

How the data were processed

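Total RNA from 4 cultures was hybridised to 1-colour Agilent arrays, 1 per group. Spots were quantified by Agilent Feature Extraction (11.0.1.1, named in the submitters' processing notes). Per the file headers, detrending statistics are reported, and the deposited columns used were each spot's processed intensity, its error, median spot and background intensities, and flags of other kinds (0 or 1). The authors also deposited log2 values for 30909 probes, whose sorted columns differ by at most 0.00065, as quantile normalization would leave them. No source used here says how the authors made them.

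Control and outlying spots were left out (80 to 126 outlying spots per array), log2 processed signals were averaged per probe, and the 75th percentile of each array was subtracted. RefSeq accessions were matched to a gene table of GRCm38.p6, used for names only, which named 32972 of 56575 probes (58.3%). The file headers name another build, so no probe coordinates are given. The brightest probe stood for a gene. A gene entered a comparison of 2 arrays when well above background on at least 1 of them. For the difference between the responses it had to be so on all 4 arrays (13668 genes). A dim value was replaced by the lowest signal well above background where that was higher, and the difference is then a bound. Python 3.11.15, pandas 2.3.3, R 4.3.3 and limma 3.58.1 (normexp, offset 50) were used. The genes and lists were chosen with earlier results of these data known, and 3 genes of the lists are not reported here and were left out of their counts. All 9 genes are described. Of each other list at most the 2 highest and 2 lowest by the mean of both responses are named, besides the other mitochondrial cycle enzymes, Ppargc1b, Esrra, St18, the 5 genes of closest pattern and some markers past 2-fold. Markers not well above background on 1 or more arrays, Siglech, Ppargc1a and Lyz2 were named after their values were seen. So were Mpc2, Pdk1, Pdk2 and Pdk3, beyond the 2 highest and 2 lowest of their list. Alternatives were median scaling, the 75th percentile of probes well above background, quantile normalization, normexp, the median over probes, the deposited values, other filters on dim probes, and 1.5-fold.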

Additional observations from a re-analysis of the deposited data

Results flagged for a closer look

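The genotype difference had opposite signs in macrophages and osteoclasts for 6 of the 9 genes, with 1 array on each side, and the difference between cell types was not tested. LysM-St18flox minus wild type went from -0.50 to 0.31 for Cs (a change of 0.81), from -0.77 to 0.60 for Idh3a (1.36), from -0.13 to 0.66 for Ogdh (0.79), from -0.15 to 0.59 for Suclg1 (0.74), from -0.35 to 0.15 for Fh1 (0.50) and from -0.79 to 0.21 for Mdh2 (0.998, just under 2-fold). The macrophage values of Ogdh and Suclg1 and the osteoclast value of Fh1 are within the calculated error of 0.20. The other Ogdh probe had the same sign in both, at 0.11 in macrophages and 0.76 in osteoclasts. The Suclg1 value in macrophages turned to 0.03 with normexp. The share of all measured genes with opposite signs is not given here, so this count cannot be called unusual. For Sucla2 the response to RANKL had opposite signs, -0.24 (wild type) and 0.32 (LysM-St18flox), a difference of 0.56 that was not tested.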

How the results depend on the processing

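No paired analysis was possible because each group has 1 array and the labels give no replicate numbers. Over 6 settings each, all 9 genes kept the sign of both responses to RANKL and of the difference between them, and 8 of 9 that of each genotype difference, the exceptions being Suclg1 in macrophages and Sucla2 in osteoclasts. Over 8 settings the median of the 9 genes ranged from 0.47 to 0.57 for the wild-type response and from 1.1 to 1.40 in LysM-St18flox. It ranged from -0.36 to -0.31 between macrophages, from 0.50 to 0.81 between osteoclasts, and from 0.64 to 0.98 for the difference between responses. The other filters on dim probes could not move these medians, as all 9 genes were well above background on every array. The deposited values and quantile normalization overlap as checks, with wild-type medians of 0.47 and 0.48. The 7 genes at least 2-fold higher in LysM-St18flox osteoclasts were 5 with quantile normalization or the authors' deposited values and 8 with median scaling, normexp background correction or the median over the probes of a gene. The 1 gene higher in wild-type osteoclasts, Idh3a, became 0 with median scaling, quantile normalization, normexp background correction and the authors' deposited values, and 3 genes passed at 1.5-fold in place of 2-fold. Between genotypes, 1.5-fold in place of 2-fold gave 3 genes lower in macrophages and 4 higher in osteoclasts, and median scaling gave 1 higher in osteoclasts, Idh3b (1.13). The 1 gene whose response was at least 2-fold higher in LysM-St18flox became 4 with median scaling, 2 with quantile normalization, 2 with normexp background correction, 2 with the authors' deposited values and 6 at 1.5-fold in place of 2-fold. Under median scaling respiratory chain subunits past 2-fold in LysM-St18flox went from 11 to 18. The number of arrays limits the precision of every value.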

Other observations

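The 5 genes of cytosolic enzymes of cycle intermediates did not move as a group. Mdh1, the cytosolic malate dehydrogenase, was at 0.43 in wild-type and 1.42 in LysM-St18flox osteoclasts against macrophages, and its difference between the responses, 0.99, was close to that of Mdh2. Its other probe gave 0.41 and 1.61. Idh1, the cytosolic NADP-dependent isocitrate dehydrogenase, was lower in osteoclasts at -0.97 and -1.54, and its other probe gave -0.99 and -1.39, while the mitochondrial Idh2 was higher at 0.49 and 0.89. Me1, the cytosolic malic enzyme, was at -0.53 and -0.64, and Aco1, the cytosolic aconitase and iron regulator, at 0.11 and 0.54. Of these 5 genes none reached 2-fold in the wild type, and Mdh1 rose and Idh1 fell in LysM-St18flox.

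The 3 probes of Suclg2 disagreed on the genotype difference. In macrophages LysM-St18flox minus wild type was 0.43 for the brightest probe, -0.64 for the next and -1.29 for the dimmest, and in osteoclasts 0.72, -0.13 and -0.60. All were well above background on all 4 arrays. No direction between genotypes is therefore given for Suclg2. What each of these probes measures was not tested.

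Lyz2, the lysozyme M gene whose locus drives Cre, was looked at after its values were seen. It was 1.05-fold lower on the LysM-St18flox than on the wild-type array in macrophages and 2.07-fold lower in osteoclasts.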
